A study of Mus musculus with 4 samples.

Results

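The Runx family loci were defined as 3 windows of the mm9 genome that hold the genes Runx1, Runx2 and Runx3, and every open chromatin interval and footprint listed there was taken. The windows were chr16:92.55-92.90 Mb for Runx1, chr17:44.58-45.05 Mb for Runx2 and chr4:134.63-134.80 Mb for Runx3. They held 103 of the 83701 open intervals of cDC1 and 63 of the 51941 of pDC, with 621 of 513689 and 332 of 312959 footprints. After the intervals of both cell types were merged, 116 of 93615 regions lay in the windows, 40 at Runx1, 45 at Runx2 and 31 at Runx3. No region was cut by a window edge. The rule for the members used position and no measured value.

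Runx proteins are transcription factors with a Runt domain, which binds DNA together with the partner protein Cbfb and reads a short core motif, TGTGGT or its reverse complement ACCACA. Runx1 is needed for the formation of blood stem cells, Runx2 is the main regulator of bone formation and is also known from the development and migration of plasmacytoid dendritic cells, and Runx3 acts in cytotoxic T cells and in dendritic and Langerhans cells. The genes of the family are transcribed from a distal promoter, P1, and a proximal promoter, P2. Open chromatin marks DNA that transposase can reach, such as promoters and enhancers, and a footprint is a short stretch inside it with fewer cuts, as a bound protein leaves.

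Libraries were made by Omni-ATAC-seq from mouse bone marrow cells that were led to dendritic cells in culture with Flt3 ligand and then sorted. One group was cDC1, classical dendritic cells that present antigen to cytotoxic T cells, with the sort given in the methods as CD11c+, CD11b+ and XCR1+. The other was pDC, plasmacytoid dendritic cells that secrete type I interferon, given as CD11c+, CD11b- and B220+. The sources name no treatment, mutant allele or age that separates the groups. Each group had 2 replicate samples, which the authors merged before footprinting, and there was 1 peak list and 1 footprint list for each cell type. There is thus no replicate error and no p-value was computed. The 95% intervals below cover counting error only. The cDC1 lists were longer and the mean tag count of their footprints higher (362 against 142), so values are given beside those over the whole genome. The cell types were not checked against marker loci here. Fewer cells with a region open and less opening per cell cannot be told apart.

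The sequences of the Runx promoters show a feature that the family shares. In the RefSeq promoter windows of build GRCm38.p6, which run from 250 bases before to 50 after a gene start, 1 promoter of each Runx gene held a pair of Runx core motifs in the same spacing, and these stretches are shown because all 3 members of the family carry them (5′ to 3′ on the strand of the gene, the core motif in capitals):
Runx1, chr16:92826028-92826051, minus strand: aaacaACCACAgaACCACAagttg
Runx2, chr17:44814586-44814609, minus strand: aaacaACCACAgaACCACAagtgc
Runx3, chr4:135120506-135120529, plus strand: cctcaACCACAgaACCACAaggcc
The run from the first core motif to the second, ACCACAGAACCACA, began 29 bases into the transcribed part at Runx1, 24 bases into it at Runx2 and at position -134, before the start, at Runx3. For Runx1 and Runx3 it lay in the upstream one of the 2 promoters listed, and the other promoter held no core motif. On either strand, the core motif was found in 16.8% of all 32851 promoter windows and at least 2 matches in 1.81%. The 14-base run was found in 4 windows (0.0122%): those 3 and that of Gm16225, whose window at chr4:135120327-135120626 overlaps that of Runx3 on the other strand and so holds the same bases. The run was chosen after the sequences had been read. A match is a stretch of letters and not a measured site, and these GRCm38 positions were not placed in the mm9 lists, so none of the regions below is called a promoter.

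At each locus the share of regions open in both cell types lay within counting error of the share over the genome. At Runx1, 12 of 40 regions were open in both cell types, 25 were found in cDC1 only and 3 in pDC only. Runx2 had 15 of 45 regions open in both, 22 in cDC1 only and 8 in pDC only. At Runx3, 16 of 31 were open in both, 11 in cDC1 only and 4 in pDC only. Over all merged regions of the genome, 43.5% were open in both, 45.5% were found in cDC1 only and 11.0% in pDC only. Regions found in cDC1 only were thus 62.5% at Runx1, 48.9% at Runx2 and 35.5% at Runx3, and those found in pDC only were 7.50%, 17.8% and 12.9%. The share open in both had a Wilson interval of 18.1 to 45.4% at Runx1, 21.4 to 47.9% at Runx2 and 34.8 to 68.0% at Runx3. All 3 hold the genome-wide share, and they overlap each other. The share found in cDC1 only at Runx1 (47.0 to 75.8%) lay just above that of the genome.

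**Figure D1:**
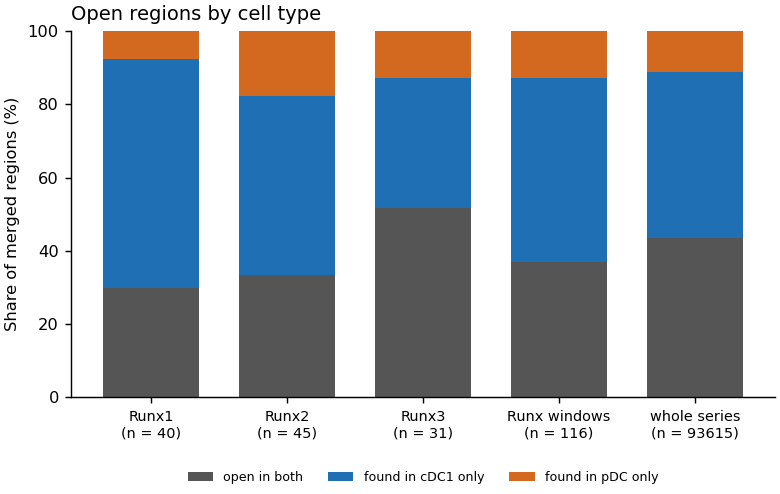
Share of merged open regions (y axis, percent) open in both cell types, found in cDC1 only and found in pDC only, for each Runx window, for the 3 windows together and for the whole genome (x axis, with the number of regions). The part open in both is 12 of 40 regions at Runx1, 33.3% at Runx2 and 51.6% at Runx3, against 43.5% over the genome.

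Counted by the intervals of each list, 45 of 103 cDC1 intervals in the windows overlapped a pDC interval (43.7%, Wilson interval 34.5 to 53.3%; 49.1% over the genome) and 48 of 63 pDC intervals overlapped a cDC1 interval (76.2%, 64.4 to 85.0%; 80.3% over the genome). Of the cDC1 intervals, 35.9% were shared at Runx1, 40.5% at Runx2 and 59.3% at Runx3. Both totals were thus close to the background, and the order of the loci rests on 39, 37 and 27 intervals. When the cDC1 list was limited to the length of the pDC list, 57.6% of the cDC1 and 60.3% of the pDC intervals were shared, and Runx3 still had the highest cDC1 share (66.7%). The genome-wide shares for lists of equal length are not given here.

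Runx3 was the most densely open of the 3 windows. Open intervals covered 9.08% of its 170 kb window in cDC1 and 6.44% in pDC, against 5.18% and 2.87% of 350 kb at Runx1 and 3.61% and 2.00% of 470 kb at Runx2. The windows are not cut to the genes in the same way, so these densities also depend on where the windows end. The widest stretch without an open region in either cell type was 70.6 kb at Runx2, 33.8 kb at Runx1 and 11.8 kb at Runx3. Neighbouring regions lay a median of 5483 bp apart at Runx1, 4747 bp at Runx2 and 3768 bp at Runx3.

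The strength of the peaks also differed by locus, most clearly in pDC. The −log10 q of MACS2 was used, with the largest value taken where an interval had several summits, and because it grows with depth each value was placed in its own list. The median pDC interval of Runx3 reached 25.4, at or above 66.5% of the intervals of the pDC list. The pDC median was 15.5 at Runx1, at 53.7% of the list, and 6.33 at Runx2, at 26.5%. In cDC1 the medians were 33.7 at Runx3, 26.8 at Runx1 and 18.4 at Runx2, at 52.3%, 47.3% and 38.9% of the cDC1 list. At Runx2, 19 of 25 pDC intervals had a −log10 q under 10, against 4 of 16 at Runx1 and 5 of 22 at Runx3. Over the whole pDC list these were 21326 of 51941. Only 3 of the 25 Runx2 intervals lay above the median of the pDC list. The pDC list thus held many weak intervals at Runx2, and the medians of cDC1 had the same order of loci as those of pDC.

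**Figure D2:**
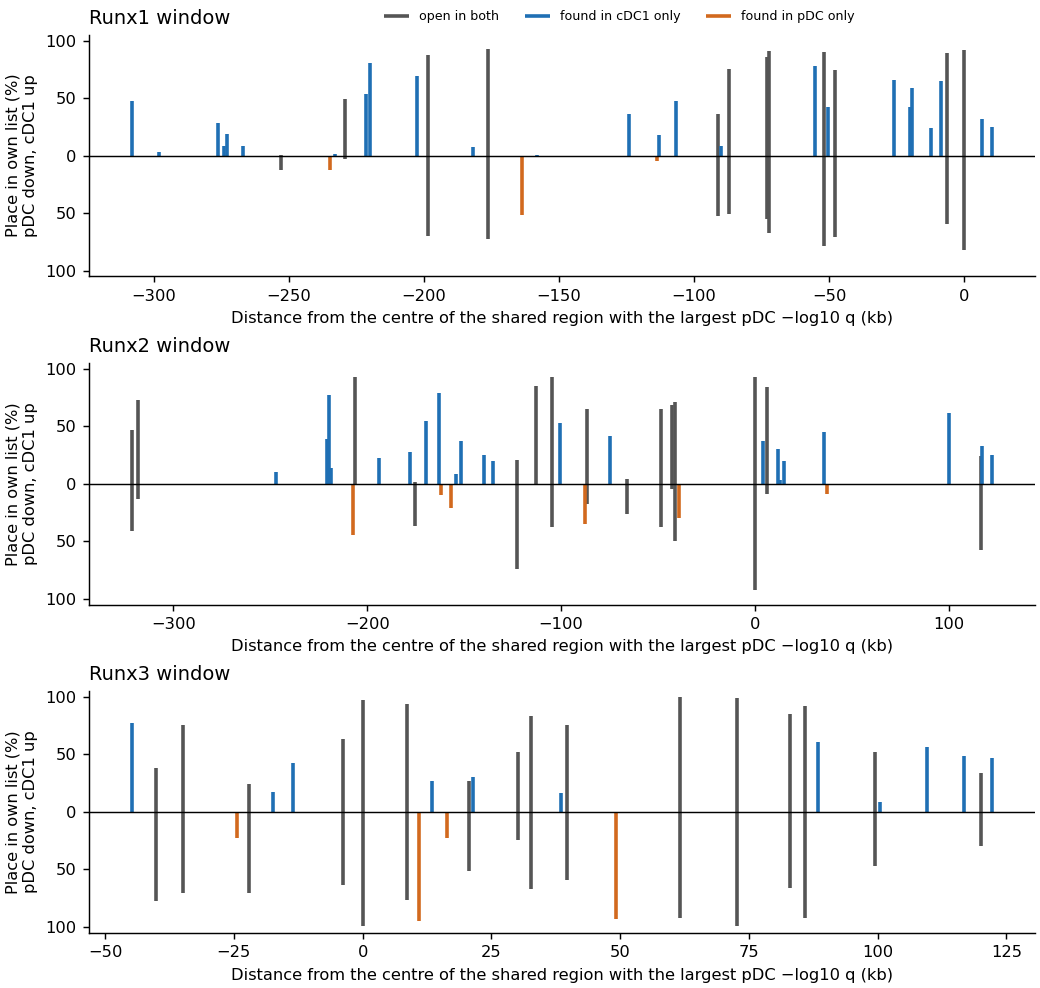
Open regions along the 3 Runx windows (x axis, distance in kb from the centre of the region open in both cell types with the largest pDC −log10 q), with the place of each region in its own list by −log10 q (y axis, percent of the list at or below) drawn upwards for cDC1 and downwards for pDC. At Runx3 the 2 tallest pDC bars without a cDC1 bar, at 94.5% and 93.4% of the list, stand between strong shared regions, while most pDC bars at Runx2 are short.

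Runx3 held the strongest regions of the family in both cell types. The region at chr4:134675922-134676711 had the largest −log10 q of the windows in pDC, 168, at 99.1% of the pDC list, and 428 in cDC1, at 96.9% of the cDC1 list. Its fold enrichment over the MACS2 background was 12.8 in cDC1 and 10.3 in pDC. With 15 footprints in cDC1 and 17 in pDC it also held more footprints of both cell types together than any other region of the Runx3 window. The region at chr4:134748615-134749363 followed closely, where −log10 q reached 547 in cDC1 and 163 in pDC at a fold enrichment of 18.6 and 12.1. It had 6 footprints in cDC1 and 2 in pDC. The region at chr4:134761884-134762658 had 283 and 84.7, with 7 and 8 footprints. These regions stood high in the lists of both cell types alike.

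The region with the largest −log10 q of all members lay at chr4:134737628-134738244 in the Runx3 window, with 678 in cDC1. Among the 40721 regions open in both cell types it ranked 339th in cDC1 (the top 0.832%) and 3876th in pDC (the top 9.52%), where its −log10 q was 84.7. The Runx3 region at 134.676 Mb had the opposite order, ranking 464th in pDC (the top 1.14%) and 2529th in cDC1 (the top 6.21%).

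Open in pDC only were 2 strong regions of the Runx3 window. The first, at chr4:134686954-134687546, had a −log10 q of 98.9, a fold enrichment of 7.65, 2 footprints and a highest tag count of 391. The second, at chr4:134725286-134725859, had a −log10 q of 91.3, a fold enrichment of 8.29, 5 footprints and a highest tag count of 377. They ranked 86th and 135th by −log10 q among the 10254 regions of the genome found in pDC only, the top 0.839% and 1.32%. No cDC1 interval or footprint was listed in either. The remaining Runx3 regions found in pDC only, at 134.693 Mb and 134.652 Mb, were weak, with a −log10 q of 5.57 and 5.53.

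The other loci had no pDC-only region of that strength. At Runx1 the 3 such regions, at 92.711, 92.639 and 92.760 Mb, had a −log10 q of 14.1, 3.98 and 2.77. At Runx2 the 8 such regions ran from 1.52 to 11.3. The strongest were at chr17:44706714-44707056 with 11.3, at 44.826 Mb with 8.41 and at 44.875 Mb with 6.95. Runx2 thus had the most regions found in pDC only, and all 8 lay below the median interval of the pDC list.

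Regions found in cDC1 only were numerous and mostly weak in all 3 windows. Their median −log10 q was 13.5 at Runx1, 13.2 at Runx2 and 21.9 at Runx3, against 13.5 over all cDC1-only regions of the genome. The strongest lay at Runx1, at chr16:92654071-92654585, with a −log10 q of 142, 10 footprints and a highest tag count of 594, which ranked 1591st of 42640 such regions (the top 3.73%). The next Runx1 regions, at 92.819 Mb and 92.672 Mb, had 122 and 74.7, with highest tag counts of 789 and 585. At Runx2 the strongest cDC1-only regions, at 44.751, 44.694 and 45.014 Mb, had a −log10 q of 126, 119 and 51.9. At Runx3 they were at 134.631, 134.765 and 134.786 Mb, with 120.1, 49.7 and 41.2. The strongest region found in cDC1 only ranked in the top 3.73% at Runx1, 4.75% at Runx2 and 5.17% at Runx3, so the loci were alike in this. Among regions found in pDC only, the strongest ranked in the top 32.5%, 39.4% and 0.839%.

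To set these regions beside those of the other list, the highest tag count of each was brought to that depth with the genome-wide median ratio of 3.28 and placed among the regions of the other list. Of 58 cDC1-only regions, 7 then lay above the median of the pDC list, against 12.7% of all cDC1-only regions of the genome, so the windows were at the background. Of 15 pDC-only regions, 11 lay above the median of the cDC1 list, against 61.2% of all pDC-only regions. The 2 strong Runx3 regions reached 95.4% and 94.9% of the cDC1 list. Scaled by all reads of the libraries instead, the numbers were 17 of 58 and 4 of 15, against 34.0% and 26.3% over the genome. Whether depth set which regions were listed in 1 cell type only was not tested.

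**Figure D3:**
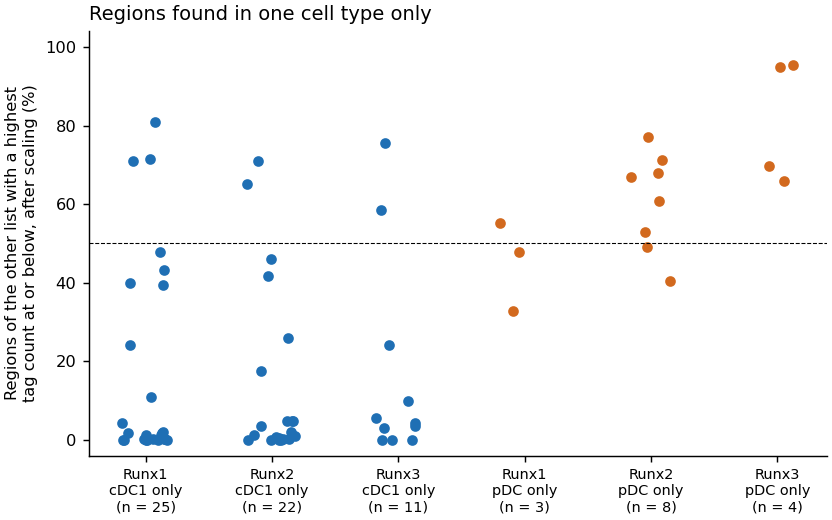
Regions of the Runx windows found in one cell type only (x axis, by gene and cell type), each placed by its highest tag count, scaled by 3.28 to the depth of the other library, among the regions of the other list (y axis, percent at or below). Most of the 58 cDC1-only regions lie under 50%, and the 2 highest points, at 95.4% and 94.9%, are the strong Runx3 regions found in pDC only.

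In regions open in both cell types, levels were compared by tag counts, the number listed with each footprint. The stretch of DNA over which the tags were counted is not given. Footprints of cDC1 and pDC were paired where each shared at least 50% of its bases with the other, and the ratio of cDC1 to pDC was divided by 3.28, the median over all 91319 pairs of the genome. A region was represented by its pair with the most tags and called different at 2-fold. Of the 43 regions open in both, 34 had a pair, 8 of 12 at Runx1, 13 of 15 at Runx2 and 13 of 16 at Runx3. Of these, 5 were called higher in cDC1 (14.7%, against 8.93% of all regions with a pair) and 6 higher in pDC (17.6%, against 12.6%). Given 34 regions, these totals were near the background (Wilson intervals 6.45 to 30.1% and 8.35 to 33.5%). By locus, 1, 4 and 0 regions were called higher in cDC1 and 0, 4 and 2 higher in pDC at Runx1, Runx2 and Runx3.

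At Runx1 every paired region leaned towards cDC1. The log2 scaled ratio ran from 0.28 to 1.37 in the 8 regions, with a median of 0.89, and 8 of 8 were above 0, against 49.5% of all regions with a pair. Scaling by the ratio of mean tag counts or by all reads raises every ratio, so only scaling by reads in peaks could move a region below 0. With reads in peaks all 8 stayed above 0, the lowest at 0.10, against 36.6% of all regions with a pair. One region passed 2-fold, at chr16:92867432-92868069, with 660 tags in cDC1 and 78 in pDC, a scaled ratio of 2.58 (exact interval 2.04 to 3.31). The region at chr16:92696958-92699255, the widest and the richest in footprints of the locus with 17 in cDC1 and 18 in pDC, had 1117 and 171 tags and lay just under 2-fold at 1.99 (1.70 to 2.36). Of 23 single pairs of footprints, 21 were above 0. Those below 0, at -0.24 and -0.16, both lay in this wide region at 92.697 Mb, beside pairs at 1.00, 1.08 and 1.11. Levels within that region were thus mixed.

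The strongest Runx1 regions of pDC shared this direction. At chr16:92873936-92874705 the −log10 q was 274 in cDC1 and 48.1 in pDC, with 843 and 165 tags and a scaled ratio of 1.56. At chr16:92821989-92822832 it was 252 and 42.5, with 1163 and 292 tags and a scaled ratio of 1.22, the lowest of the locus. Pairing left out 4 Runx1 regions in which no footprints matched, however. The highest tag counts of a region were also compared in place of a pair, a choice made after the data were seen. By these, 9 of 12 Runx1 regions were above 0, against 50% of all regions with such counts. Of the 12, 1 was called higher in cDC1 and 2 higher in pDC. The shares over the genome were 10.4% and 13.7%, so both counts of calls were near the background. Of the Runx1 regions without a pair, that at 92.783 Mb had a highest count of 92 in cDC1 and 109 in pDC. The region at 92.621 Mb had 79 and 52, and that at 92.826 Mb had 504 and 232. The lean towards cDC1 thus holds for the paired regions, and 3 of the 4 unpaired regions went the other way.

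At Runx2 the regions split in both directions. Of 13 paired regions, 4 were called higher in cDC1 and 4 higher in pDC (each 30.8%, Wilson interval 12.7 to 57.6%). Over all regions with a pair the shares were 8.93% and 12.6%, so the interval started only just above the share for pDC. The log2 scaled ratio ran from -3.01 to 2.43 with a median of -0.23. The middle 50% of all paired regions of the genome lay between -0.51 and 0.39, and that of Runx2 between -1.76 and 1.15.

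The Runx2 regions higher in cDC1 were strong peaks in cDC1 and weak ones in pDC. The region at chr17:44707731-44708340 had 832 tags in cDC1 and 47 in pDC, a scaled ratio of 5.40 (4.03 to 7.41), the largest in this direction. Its −log10 q was 298 against 1.77, and its fold enrichment 16.6 against 2.34. It lay next to the strongest Runx2 region found in pDC only, at 44.707 Mb. The region at chr17:44920026-44920514 had 564 and 42 tags and a ratio of 4.10 (2.99 to 5.75), and that at chr17:44595934-44596431 had 309 and 36 tags and a ratio of 2.62 (1.85 to 3.81). The fourth, at 44.809 Mb, had 1064 and 146 tags and a ratio of 2.22 (1.87 to 2.66), and fell under 2-fold when scaled by reads in peaks (log2 0.97) or with the highest tag counts (log2 0.93). The −log10 q of the 4 ran from 93.6 to 298 in cDC1 and from 1.77 to 8.86 in pDC.

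The Runx2 regions higher in pDC held more tags in pDC even before scaling. At chr17:44791445-44792022 there were 79 tags in cDC1 and 194 in pDC, which is 8.04 times as high in pDC after scaling (6.16 to 10.6). Its −log10 q was 8.35 in cDC1 and 34.1 in pDC, and its fold enrichment 3.15 and 4.50. At chr17:44848102-44848418 there were 70 and 127 tags, a scaled ratio of 5.94 towards pDC (4.40 to 8.07). At chr17:44738465-44739111 there were 69 and 93 (4.41; 3.20 to 6.12), and at chr17:45030566-45030947 there were 96 and 99 (3.38; 2.53 to 4.52). Unscaled counts higher in pDC, whose tag counts were lower over the genome, were found in 5 of the 34 paired regions of the windows (14.7%), these 4 and 1 at Runx3, against 4.39% of all regions with a pair. Every scaling tried lowers the unscaled ratio of cDC1 to pDC, so the direction of these 4 could not change with the scaling. Scaled by all reads, only the region at 45.031 Mb no longer reached 2-fold, with a log2 scaled ratio of -0.85.

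One strong Runx2 region was open alike in both. At chr17:44913699-44914805 the −log10 q was 300.2 in cDC1 and 83.5 in pDC, at 92.8% and 92.0% of their lists. It held 11 and 16 footprints, the most of the locus when both cell types are summed, and 853 and 262 tags in the pair with the most, a scaled ratio of 0.994 (0.864 to 1.15). It was the only one of 25 pDC intervals at Runx2 among the top 10% of the pDC list, and the next region open in both was that at 44.920 Mb, which was higher in cDC1. Regions of unequal and of equal levels thus followed each other along this locus.

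At Runx3 most paired regions lay below 0, but the share was within counting error of that over the genome. Of 13 paired regions, 3 were above 0 (23.1%, Wilson interval 8.18 to 50.3%), against 49.5% of all regions with a pair. The median log2 scaled ratio was -0.35, with a range from -1.98 to 0.56. None was called higher in cDC1 (Wilson interval 0 to 22.8%), against 8.93% of all regions with a pair. In pDC 2 were called higher (15.4%, 4.33 to 42.2%), against 12.6%, so both counts were near the background. At chr4:134696535-134697240 there were 125 tags in cDC1 and 151 in pDC, 3.96 times as high in pDC after scaling (3.10 to 5.06). At chr4:134635750-134636630 there were 225 and 152 (2.21; 1.79 to 2.73), and this call was lost when scaled by the ratio of mean tag counts (log2 -0.78) or of all reads (log2 -0.24). The region at 134.676 Mb, the strongest in pDC, had 1391 and 591 tags, a scaled ratio of 0.719 (0.652 to 0.792). The region at 134.738 Mb, the strongest in cDC1, had 1448 and 299 tags and the highest ratio of the locus, 1.48 (1.30 to 1.68). Each scaling shifts all ratios of the genome by 1 amount. With reads in peaks 2 of 13 Runx3 regions (15.4%) were above 0, against 36.6% over the genome, and the median was -0.53. With the ratio of mean tag counts 7 of 13 Runx3 regions (53.8%) were above 0, against 69.9% over the genome, and the median was 0.01. With the ratio of all reads 11 of 13 (84.6%) were above 0, against 85.7%, and the median was 0.56. The Runx2 median changed sign likewise, to 0.13 and 0.68.

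**Figure D4:**
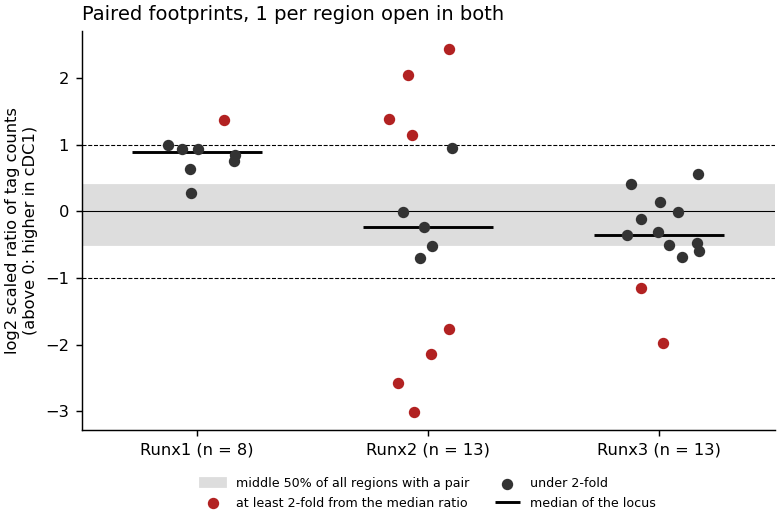
Log2 scaled ratio of the tag counts of paired footprints, cDC1 to pDC (y axis, above 0 for higher in cDC1), with 1 point for each region open in both cell types that had a pair, by locus (x axis). The grey band is the middle 50% of all such regions of the genome, bars are medians, red points are called at 2-fold (dashed lines), the 8 Runx1 points all lie above 0, the 13 Runx2 points reach from -3.01 to 2.43 and 10 of the 13 Runx3 points lie below 0.

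The split of the calls moved with the scaling. Against 5 regions higher in cDC1 and 6 in pDC, the numbers were 12 and 5 with the ratio of mean tag counts, 4 and 6 with reads in peaks and 16 and 4 with all reads. Over the genome the shares called then were 16.8% and 7.43%, 6.32% and 16.2%, and 42.8% and 3.36%. Where a region had 2 or more pairs of footprints, these were mostly on 1 side: in 20 of 22 such regions every pair lay on the same side of 0, among them 7 of 7 called regions. Pairs of 1 region are neighbours and not independent, and the share over the genome is not given here. The calls therefore gain no separate support from this.

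The share of footprints found in both cell types was lower in the Runx windows than over the genome. At least 50% of the bases were covered by footprints of the other cell type in 127 of 621 cDC1 footprints (20.5%, Wilson interval 17.5 to 23.8%), against 28.6% of all cDC1 footprints. In pDC these were 125 of 332 (37.7%, 32.6 to 43.0%), against 44.4%. Of the cDC1 footprints, 52.2% in the windows and 59.7% of all lay in regions open in both, as did 81.0% and 84.2% of the pDC footprints. All shared footprints lay in such regions by construction, as footprints were called within peaks. Within those regions 39.2% were shared in cDC1 (34.0 to 44.6%; 47.9% over the genome) and 46.5% in pDC (40.6 to 52.4%; 52.7% over the genome). Footprints of a window are neighbours and not independent, and no test of this difference was made.

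By locus, the share of cDC1 footprints also found in pDC was 18.9% at Runx1, 17.6% at Runx2 and 26.0% at Runx3. The share of pDC footprints found in cDC1 was 30.9%, 35.3% and 45.4%. Runx3 came first in both, and its Wilson intervals (20.1 to 32.8% and 36.7 to 54.3%) hold the shares over the genome (28.6% and 44.4%). Within regions open in both, cDC1 footprints were shared in 46.1% at Runx1, 38.8% at Runx2 and 35.6% at Runx3, against 47.9% over the genome. For pDC footprints these were 36.1%, 48.2% and 53.5%, against 52.7%. Of all cDC1 footprints, 72.9% at Runx3 and 41.1% at Runx1 lay in regions open in both.

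The region with the most footprints in 1 cell type was not a strong peak. The Runx3 region at chr4:134653774-134654841 held 27 footprints in cDC1, the most of any member in 1 cell type, with tag counts from 42 to 115 and a −log10 q of 9.57. In pDC it held 1 footprint, with 130 tags, at a −log10 q of 29.4, and none was shared. The Runx3 region at 134.738 Mb, with the largest −log10 q of all, held 5 in each cell type. Per kb of open interval, footprints numbered 10.2 at Runx1, 15.0 at Runx2 and 11.7 at Runx3 in cDC1 and 9.67, 12.3 and 10.9 in pDC, against 11.9 over the genome in either list. Runx2, with the weakest median peaks, had the densest footprints in both cell types. Their median tag count in cDC1 was 141 at Runx2, 212 at Runx1 and 225 at Runx3, and in pDC 99.5, 97.0 and 138.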

How the data were processed

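Omni-ATAC-seq was measured in 2 cDC1 and 2 pDC samples. After trimming (Trim Galore) and alignment (Bowtie2), the authors ran MACS2 for peaks and, on merged replicates, HINT-ATAC for footprints. Each cell type has 1 deposited list of either kind, and how replicates entered the peak lists is not stated. The build is mm9 (mm10 is named in the general methods). In the deposited peak lists the values used were the −log10 q and the fold enrichment (a ratio over the MACS2 background). In the deposited footprint lists they were whole-number tag counts, not scaled for depth, whose counting window the sources used here do not give. How many reads lie behind a value is therefore known only through these counts, and the sources do not say whether replicates came from separate cultures.

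Lines of a peak list that repeat 1 interval were joined and the largest −log10 q kept. Intervals of both lists were merged into regions at an overlap of 1 bp. A footprint counted as shared when footprints of the other list covered at least 50% of its bases. Footprint pairs, 1 to 1, shared at least 50% of both. Ratios were divided by the median ratio (3.28) and called at 2-fold, with exact binomial intervals, and shares have Wilson intervals. For each gene, the text names the strongest 3 regions of each class, the regions called at 2-fold (the 3 most changed in each direction) and the region with the most footprints, and other regions were named after their values were seen. The members, windows and lists were chosen with earlier results of these data known. The alternatives tried were other overlap limits, stricter peaks, lists of equal length, other scalings and another fold limit. Scripts were tested on simulated data. Promoter sequences came from RefSeq (GRCm38.p6), with 5 promoters matched to the 3 genes, and no coordinates were converted between builds. Python 3.11.15, numpy 2.4.6, pandas 2.3.3, scipy 1.17.1, matplotlib 3.10.9 and bedtools 2.31.1 were used.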

Additional observations from a re-analysis of the deposited data

How the results depend on the processing

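No paired analysis was possible because each cell type has 1 peak list and 1 footprint list with no values per replicate, and for the same reason no replicate could be left out. The share of cDC1 intervals of the Runx windows found in both cell types (43.7%) was 12.8% (5 of 39) with a −log10 q of at least 50. That limit left only 7 pDC intervals in the windows, of which 5 were shared (71.4%). With the cDC1 list as long as the pDC list, the share of cDC1 intervals was 57.6% and that of pDC intervals (76.2% before) was 60.3%. The share of cDC1 footprints found in both (20.5%) was 25.3% at an overlap of 1 bp, 15.3% at 80%, 34.2% with lists of equal length and 30.5% for footprints with at least the median tag count. For pDC footprints (37.7%) it was 44.6% at 1 bp and 29.2% at 80%. The shares over the genome under these settings are not given here, so these shares of intervals and footprints cannot be set against a background. The number of regions called higher in cDC1 (5) was 12 when scaled by the ratio of mean tag counts, 16 when scaled by all reads and 12 at a limit of 1.5-fold. At 1.5-fold 9 of the 34 regions were called higher in pDC, and the shares over the genome were 18.2% for cDC1 and 22.5% for pDC. The cause of these shifts was not tested beyond what each limit or scaling does by its construction. None of the called values changed direction under the alternatives tried, but most had little room to do so. Another fold limit leaves the ratios as they are, and no scaling tried could reverse the 5 regions with unscaled counts higher in pDC. Of the scalings, only reads in peaks lowered the ratios of regions called higher in cDC1, the smallest from log2 1.15 to 0.97. With 1 list per cell type, differences between the loci and between the cell types cannot be set against replicate spread, and weak regions are limited by the lower tag counts of pDC. Highest tag counts in place of a pair, and other scalings for regions found in 1 cell type, were alternatives chosen after the data were seen.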
